A study of Mus musculus with 6 samples.

Results

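The 10 immediate early genes *Fos*, *Fosb*, *Junb*, *Jun*, *Egr1*, *Egr2*, *Nr4a1*, *Npas4*, *Arc* and *Ier2* were listed by name and matched by symbol to a table of 55421 genes. All 10 were present, and 9 passed the filter on low counts. Expression was measured by RNA sequencing of retinas from 2-month-old mice, 3 from each genotype. Control libraries, with *Yap* flox/flox alone, were coded YR612, YR613 and YR615. Those of *Yap* cKO mice, which also carry Rax-CreERT2, were coded YR711, YR713 and YR714. Each library is called a retina here, although the sources do not state whether it holds a single retina or both retinas of an animal. Both groups carried the floxed *Yap* alleles and both received 4-hydroxytamoxifen (4OH-T) at P10 and P14, so that they differed in the Cre transgene. The *Rax* promoter directs this inducible Cre to Müller glia and to the non-pigmented epithelium of the ciliary body, so most retinal neurons were not targeted. The sex, litter and time of day of sampling of each animal were not given in the sources used here.

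Immediate early genes are transcribed within minutes of a stimulus, without new protein synthesis, through factors such as SRF and CREB that are already present in the cell. Many encode transcription factors of the FOS/JUN (AP-1), EGR and NR4A families, which act on later target genes, whereas ARC acts at synapses. In the retina, these genes are known to respond to light, neuronal activity, injury and the handling of tissue.

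Between 24261799 and 35067068 counts were assigned to genes per retina. *Yap1*, the targeted gene, was at 9.48 to 9.83 TPM (a transcript level corrected for exonic length and library size) in control retinas and at 3.76 to 3.99 TPM after deletion. Defining markers of Müller glia, retinal ganglion cells, amacrine cells and rods were detected in every retina. The 5 amacrine markers summed to 489 to 585 TPM in control and 602 to 686 TPM in *Yap* cKO retinas. Of the 5, 0 were called (1.49% of all genes) and 3 were at an unadjusted p under 0.05 in edgeR (21.4% of all genes). The groups did not overlap for 4 of them (24.3% of all genes). The 3 markers of ciliary body non-pigmented epithelium (*Optc*, *Best2*, *Zic1*) summed to 56.5 to 61.6 TPM in control and 6.71 to 13.8 TPM in *Yap* cKO retinas, and the 5 markers of melanin pigment cells to 70.5 to 77.9 and 16.7 to 47.7 TPM; of these 3 and 5 markers, 2 and 1 were called lower, against 0.989% of all genes. These retinas are bulk samples, in which fewer cells of a type and less RNA per cell cannot be told apart.

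The promoters of 5 genes are shown because each holds the core TGACG of the cAMP response element, the sequence that CREB binds. Each is the RefSeq window on GRCm38.p6 from 250 bases before to 50 bases after the start of the transcript, 300 bases in all, with the core in capitals, written as CGTCA where it lies on the other strand. They lie at chr12:85473640-85473939 (plus strand, *Fos*), chr7:19309996-19310295 (minus strand, *Fosb*), chr8:84978699-84978998 (minus strand, *Junb*), chr15:101266596-101266895 (plus strand, *Nr4a1*) and chr19:4989922-4990221 (minus strand, *Npas4*). The *Nr4a1* window starts from a transcript that begins inside the span of the gene in the count table.
Fos: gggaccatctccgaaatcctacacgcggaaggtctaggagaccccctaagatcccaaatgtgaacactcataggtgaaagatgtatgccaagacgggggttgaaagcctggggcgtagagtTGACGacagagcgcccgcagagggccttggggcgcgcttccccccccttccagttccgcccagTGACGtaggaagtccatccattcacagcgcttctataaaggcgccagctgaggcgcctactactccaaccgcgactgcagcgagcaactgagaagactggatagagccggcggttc
Fosb: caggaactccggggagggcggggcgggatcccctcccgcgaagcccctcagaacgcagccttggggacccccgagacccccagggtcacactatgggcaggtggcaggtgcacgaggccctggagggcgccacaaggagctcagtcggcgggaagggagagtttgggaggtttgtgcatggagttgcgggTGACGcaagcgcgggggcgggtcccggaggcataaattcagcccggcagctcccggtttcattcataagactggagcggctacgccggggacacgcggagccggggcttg
Junb: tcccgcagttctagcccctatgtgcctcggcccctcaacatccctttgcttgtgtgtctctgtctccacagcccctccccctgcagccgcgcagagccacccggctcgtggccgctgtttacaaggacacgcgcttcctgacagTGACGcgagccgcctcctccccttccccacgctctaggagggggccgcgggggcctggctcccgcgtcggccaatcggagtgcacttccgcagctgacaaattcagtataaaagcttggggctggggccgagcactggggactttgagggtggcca
Nr4a1: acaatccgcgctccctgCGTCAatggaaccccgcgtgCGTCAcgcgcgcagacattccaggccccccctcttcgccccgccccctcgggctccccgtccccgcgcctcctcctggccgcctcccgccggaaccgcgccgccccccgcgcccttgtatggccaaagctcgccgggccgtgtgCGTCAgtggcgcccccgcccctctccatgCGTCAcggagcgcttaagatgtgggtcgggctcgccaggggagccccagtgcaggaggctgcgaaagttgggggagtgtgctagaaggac
Npas4: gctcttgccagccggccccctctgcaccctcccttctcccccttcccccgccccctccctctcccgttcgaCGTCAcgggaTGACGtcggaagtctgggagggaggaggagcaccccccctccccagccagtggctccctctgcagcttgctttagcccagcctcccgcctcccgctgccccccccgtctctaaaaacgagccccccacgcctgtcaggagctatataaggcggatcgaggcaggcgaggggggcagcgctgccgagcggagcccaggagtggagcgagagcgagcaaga
The core was found, on either strand, in 5 of the 6 tested genes with a window and in 20.8% of all 32851 RefSeq windows of this length. In *Fos* it stood at positions -129 and -66 from the start, in *Fosb* at -60 and in *Junb* at -106. *Nr4a1* held it at -233, -213, -69 and -40, and *Npas4* at -179 and -169. The window of *Jun* did not contain these letters. The complete element TGACGTCA (1.79% of all windows), the AP-1 site TGANTCA (7.81%) and the CArG box bound by SRF (1.63%) were not found in these 6 windows. *Arc*, *Ier2* and *Egr1* had no window here. A match describes the letters only, and sites outside the windows were not searched.

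Levels can be compared between genes because TPM is corrected for length. *Fos* had the highest mean over the 6 retinas, at 44.1 TPM, followed by *Jun* (40.4 TPM), *Egr1* (34.3 TPM), *Ier2* (34.0 TPM), *Nr4a1* (27.0 TPM) and *Junb* (17.0 TPM). The ranges of neighbours in this order overlapped down to *Junb*. A gap separated *Junb*, whose lowest retina was at 7.76 TPM, from *Arc* (mean 2.60 TPM, highest retina 3.15 TPM). *Arc*, *Npas4* (2.26 TPM) and *Fosb* (1.83 TPM) again overlapped in their ranges. *Egr2*, a zinc-finger factor of the EGR family, had 1, 2 and 4 counts in the control retinas and 2, 1 and 3 counts in the *Yap* cKO retinas, and was the member that failed the filter. No difference in *Egr2* was detectable at this depth.

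**Figure D1:**
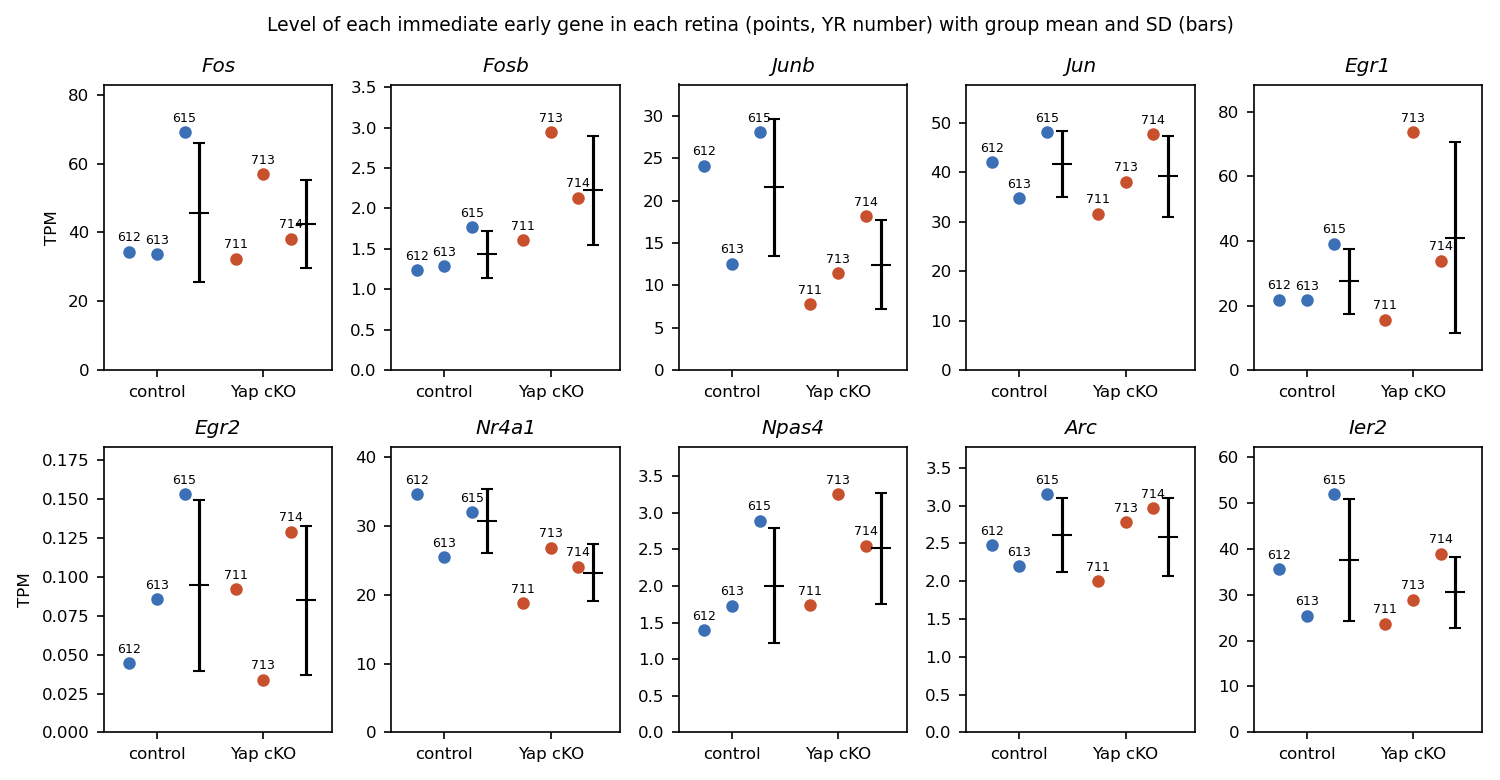
Level of each of the 10 immediate early genes in TPM (y axis, from 0, a separate scale for each gene) in the 3 control (blue) and 3 *Yap* cKO retinas (orange), with the number of the YR code beside each point and bars for the mean and SD. The retinas of both groups overlapped for all 9 tested genes, and YR711 was the lowest *Yap* cKO retina in each of them; *Egr2* rests on 1 to 4 counts.

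The comparison of *Yap* cKO with control retinas asked whether loss of *Yap* from its target cells was accompanied by altered immediate early gene expression in the retina. None of the 9 genes tested was called at an adjusted p of at most 0.05 (quasi-likelihood test of edgeR, Benjamini-Hochberg adjustment over 16575 genes), against 1.49% of all genes tested. The Wald test of DESeq2 also called 0 of the 9, and 5.96% of the genes that it gave an adjusted p. Likewise limma-voom (1.64% of all genes called) and the likelihood ratio test of edgeR (6.18%) called 0 of the 9. A fitted fold change of at least 1.5 in either direction was seen for 2 of the 9, *Junb* and *Fosb*, and for 6.81% of all genes. With no filter on low counts, however, *Egr2* was tested too. In that run edgeR called 4 members, *Junb*, *Egr1*, *Nr4a1* and *Fosb* but not *Egr2*, beside 6.19% of all genes then tested. With the criteria of a 1.5-fold change and 5 TPM added, 0 of the 9 met them, against 0.796% of all genes. At an unadjusted p under 0.05 there were 3, namely *Junb*, *Nr4a1* and *Fosb*, where 21.4% of all genes passed. The groups overlapped in TPM for all 9, whereas 24.3% of all genes had groups that did not overlap. Of the fitted differences, 3 were above and 6 below 0, with a median log2 fold change of -0.15, against 0.00168 over all genes tested. The size of that median depended on single retinas and on the correction used. It changed sign to 0.089 without YR615, and was -0.0019 without YR711 and -0.28 without YR613. With offsets corrected for exonic length it was -0.060, and with a correction for GC content -0.089.

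*Junb*, an AP-1 subunit, had the largest fitted difference. Its levels were 24.1, 12.6 and 28.1 TPM in the control retinas YR612, YR613 and YR615, and 7.76, 11.4 and 18.2 TPM in the *Yap* cKO retinas YR711, YR713 and YR714. The control retina YR613 lay below YR714, so the groups overlapped, although the other control retinas were above every *Yap* cKO retina. This gave a log2 fold change of -0.85 (SE 0.35, 95% interval -1.63 to -0.07, edgeR adjusted p = 0.201). Without YR613 the log2 fold change was -1.14 (edgeR adjusted p = 0.0361) and without YR714 it was -1.24 (edgeR adjusted p = 0.0430), so that the call turned on single retinas. Leaving out the other 4 retinas gave no call, and the adjusted p over all 6 omissions ranged from 0.0361 to 0.512 in edgeR. Exons of *Prdx2* overlap *Junb* on the opposite strand, and counting was by strand.

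*Jun*, its partner in AP-1, showed a smaller spread. The control retinas were at 42.02, 34.8 and 48.1 TPM and the *Yap* cKO retinas at 31.6, 38.1 and 47.7 TPM. The means of 41.6 ± 6.67 and 39.1 ± 8.11 TPM (SD, n = 3 each) differed by less than the SD of either group. Fitted to the counts, the log2 fold change of *Jun* was -0.15 (SE 0.17, 95% interval -0.53 to 0.24, edgeR adjusted p = 0.638), from -0.33 without YR714 to -0.01 without YR711. The antisense gene *Junos* overlaps *Jun*.

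*Fos*, which pairs with JUN proteins to form AP-1, was at 34.3, 33.7 and 69.2 TPM in the controls and at 32.4, 56.9 and 38.1 TPM in *Yap* cKO retinas. One retina stood high in each group, YR615 and YR713, and the other 4 lay close together. The log2 fold change of *Fos* was -0.16 (SE 0.29, 95% interval -0.81 to 0.48, edgeR adjusted p = 0.765), and it turned to 0.26 without YR615. *Fosb*, a paralog of *Fos*, was at 1.24, 1.29 and 1.77 TPM in control and 1.605, 2.95 and 2.13 TPM in *Yap* cKO retinas. YR711 fell below the control retina YR615, while the other *Yap* cKO retinas were above all controls. For *Fosb* the log2 fold change was 0.59 (SE 0.24, 95% interval 0.04 to 1.13, edgeR adjusted p = 0.207), and it remained above 0 in each omission, from 0.33 to 0.77. *Fosb* and *Junb*, both subunits of AP-1, thus had fitted differences of opposite sign, and neither passed the test.

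*Egr1*, a zinc-finger transcription factor encoded on chromosome 18, was at 21.8, 21.6 and 39.2 TPM in the controls and at 15.6, 73.7 and 33.9 TPM in *Yap* cKO retinas. Both the lowest and the highest of the 6 values belonged to *Yap* cKO retinas, 4.73-fold apart. The fit gave a log2 fold change of 0.52 (SE 0.46, 95% interval -0.50 to 1.55, edgeR adjusted p = 0.519) and was -0.20 without YR713, so its sign rested on that retina.

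*Nr4a1*, an orphan nuclear receptor, was at 34.6, 25.5 and 32.0 TPM in the controls and at 18.7, 26.8 and 24.1 TPM in *Yap* cKO retinas. Only YR613 and YR713 crossed, with the control retina below the *Yap* cKO retina. The means were 30.7 ± 4.70 and 23.2 ± 4.11 TPM (SD, n = 3 each). The log2 fold change of *Nr4a1* was -0.46 (SE 0.16, 95% interval -0.83 to -0.09, edgeR adjusted p = 0.160). Without YR613 it was -0.59 and was called (edgeR adjusted p = 0.0380); the other 5 omissions gave no call, and the adjusted p ranged up to 0.448 in edgeR.

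*Npas4*, a neuronal transcription factor induced by calcium entry, was at 1.39, 1.73 and 2.89 TPM in control and 1.74, 3.25 and 2.55 TPM in *Yap* cKO retinas. Its log2 fold change was 0.27 (SE 0.30, 95% interval -0.40 to 0.95, edgeR adjusted p = 0.611), from 0.04 without YR713 to 0.64 without YR615. *Arc*, whose product acts in the trafficking of glutamate receptors at synapses, was at 2.48, 2.20 and 3.15 TPM in control and 1.997, 2.78 and 2.97 TPM in *Yap* cKO retinas. Both neuronal genes overlapped between the groups over most of their range. For *Arc* the log2 fold change was -0.07 (SE 0.22, 95% interval -0.56 to 0.42, edgeR adjusted p = 0.874). *Ier2*, a nuclear protein induced early by growth factors, was at 35.5, 25.4 and 51.8 TPM in control and 23.6, 28.9 and 38.89 TPM in *Yap* cKO retinas. Its log2 fold change was -0.36 (SE 0.26, 95% interval -0.95 to 0.23, edgeR adjusted p = 0.439), the groups overlapped, and leaving out single retinas gave -0.59 (without YR714) to -0.06 (without YR615). For *Fos*, *Jun*, *Egr1*, *Npas4*, *Arc* and *Ier2* the interval held differences in either direction, and a p that misses the threshold does not show that the levels were alike.

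**Figure D2:**
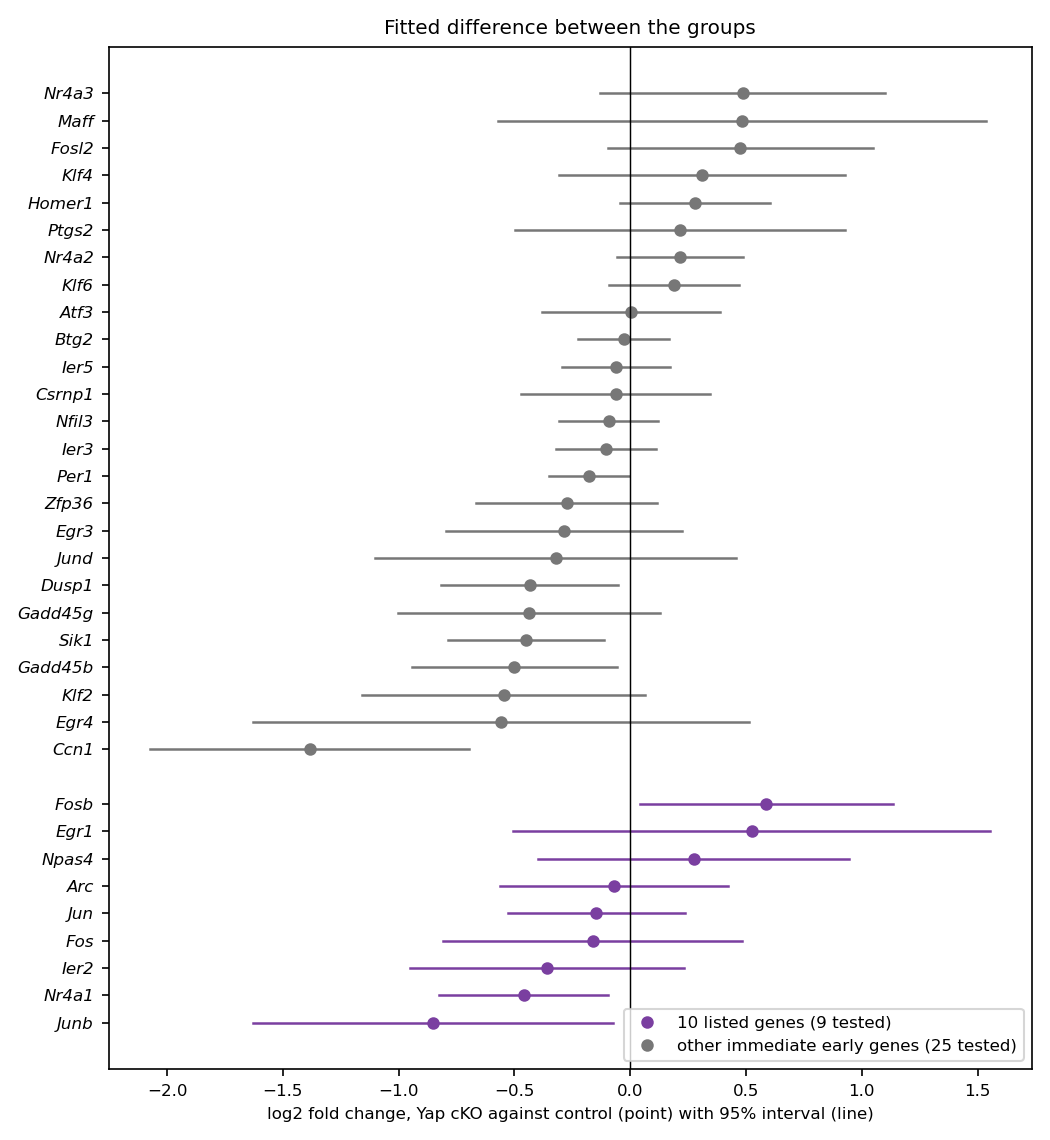
Fitted log2 fold change of *Yap* cKO against control (x axis, 0 is no difference) with its 95% interval, for the 9 tested genes (purple) and 25 other immediate early genes (grey), from edgeR's quasi-likelihood fit. Among the 9 genes, the intervals of *Junb*, *Nr4a1* and *Fosb* leave out 0. Those of 5 of the 25 other genes, *Ccn1* among them, do so too. The edgeR adjusted p of all 34 is above 0.05.

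The 9 genes mostly shared their low retinas, YR711 and YR613, and their high control, YR615. Relative to each gene's own mean, their directions were mixed in YR612, YR713 and YR714. YR711 was the lowest of the 3 *Yap* cKO retinas in 9 of 9 tested genes, whereas it was the lowest in 31.9% of all genes tested. It was the lowest of all 6 retinas in 7 of 9 genes, against 18.0% of all genes. Among controls, YR613 was the lowest in 7 of 9 (29.4% of all genes) and YR615 the highest in 8 of 9 (31.2% of all genes). YR615 was the highest of all 6 retinas in 5 genes and YR713 in 3. These shares are a description, since genes of 1 response in the same retinas are not independent of each other. Ordering retinas within their group was chosen after the values were seen.

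Expressed as the log2 difference from each gene's own mean, the median over the 9 genes was -0.38 in YR711 and -0.32 in YR613, and it was 0.39 in YR615. YR612 stood at -0.05, YR713 at 0.12 and YR714 at 0.23. All 9 genes were below their mean in YR613 and YR711, and none was below it in YR615. In YR713 *Egr1* was 1.30 above its mean and *Junb* 0.44 below. The relation of relative expression to exonic length differed between retinas, with Spearman's rho across genes from -0.41 in YR612 to 0.40 in YR711. With a correction for this trend, YR711 was still the lowest *Yap* cKO retina in 9 of 9 genes and YR615 the highest control in 8 of 9.

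**Figure D3:**
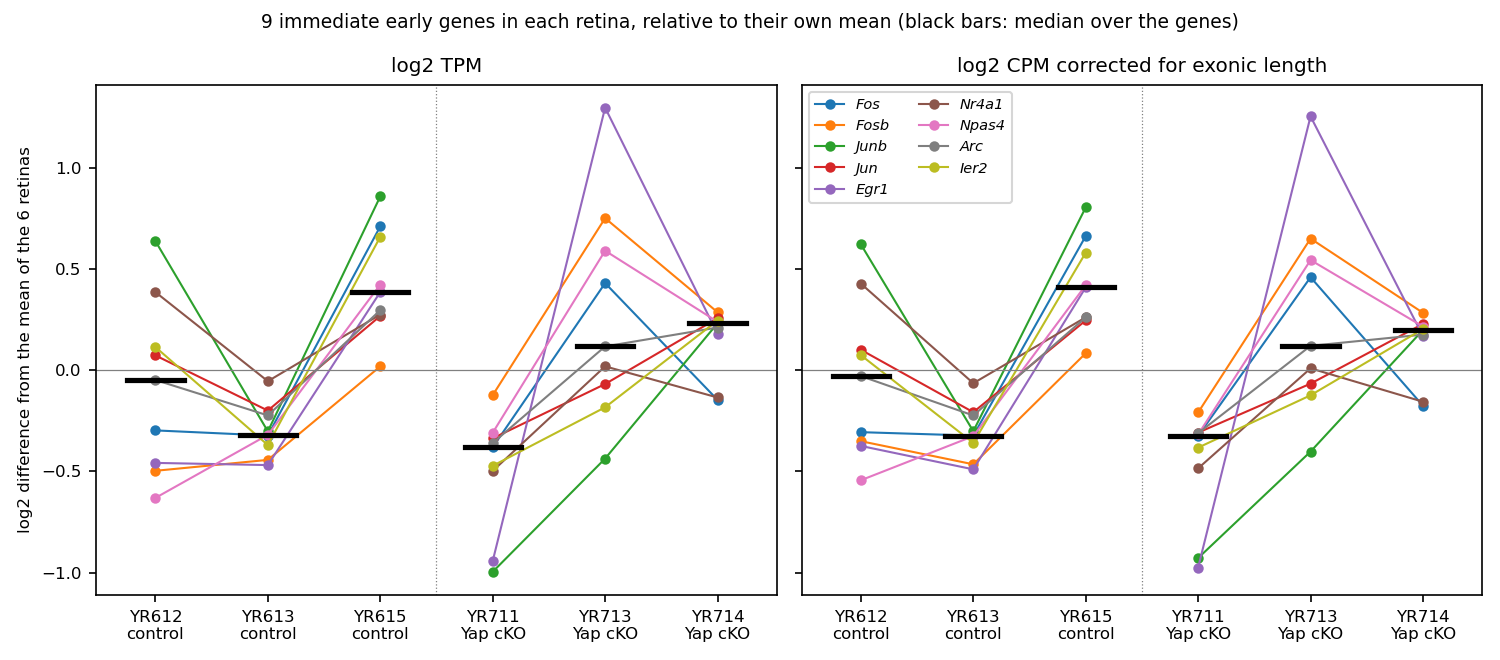
Log2 difference of each of the 9 tested genes (coloured points, lines join values of 1 gene and carry no order) from its own mean over the 6 retinas, by retina, on TPM (left) and on CPM corrected for exonic length (right), with the median as a black bar. On the left the medians run from -0.38 in YR711 to 0.39 in YR615, and both groups span 0.

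For some markers of other cells the retinas ranked in a similar way, and their part in this pattern was not tested. The 5 microglia markers summed to 65.2, 55.5 and 71.8 TPM in YR612, YR613 and YR615, and to 60.1, 74.6 and 66.4 TPM in YR711, YR713 and YR714. The lowest and highest controls of this sum, and its lowest *Yap* cKO retina, were those of the immediate early genes. However, within each group the order of the sum was that of *C1qa*, the most abundant of the 5. *Tmem119* shared these extremes, but its highest *Yap* cKO retina was YR714 (5.94 TPM). *Cx3cr1* (8.72 TPM) and *P2ry12* (8.79 TPM) were instead at their highest in YR711, and *Csf1r* was highest among controls in YR612 (11.3 TPM). The 3 red blood cell markers summed to 46.4, 38.2 and 65.6 TPM in the controls and to 26.6, 33.1 and 40.2 TPM in the *Yap* cKO retinas. Their extremes among controls, and the lowest *Yap* cKO retina, were the same as for the immediate early genes, and most of the sum was *Hbb-bs*. The 5 melanin markers (16.7 TPM) and the 4 markers of retinal pigment epithelium (167 TPM) were also at their lowest in YR711, against ranges over the 6 retinas up to 77.9 and 576 TPM. In contrast, YR613, low for the immediate early genes, had the highest pigment epithelium sum. The 5 Müller glia markers summed to 4060, 4373 and 4252 TPM in controls and to 4107, 3573 and 3602 TPM in *Yap* cKO retinas, an order that did not follow these genes.

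All 9 genes varied more between retinas of a group than most genes did. The biological coefficient of variation, the spread between replicates beyond counting error, had a median of 22.9% over the 9 against 10.7% over all genes tested. Each of the 9 exceeded the 75th percentile of dispersion (25% of all genes do so), from *Nr4a1* at the 80.6th percentile to *Egr1* at the 99.6th percentile. *Egr1* (38.5%), *Junb* (29.6%) and *Fos* (24.8%) had the widest spread, followed by *Npas4* (24.1%), *Ier2* (22.9%) and *Fosb* (19.5%). *Arc* (15.5%), *Jun* (15.2%) and *Nr4a1* (14.6%) varied least.

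**Figure D4:**
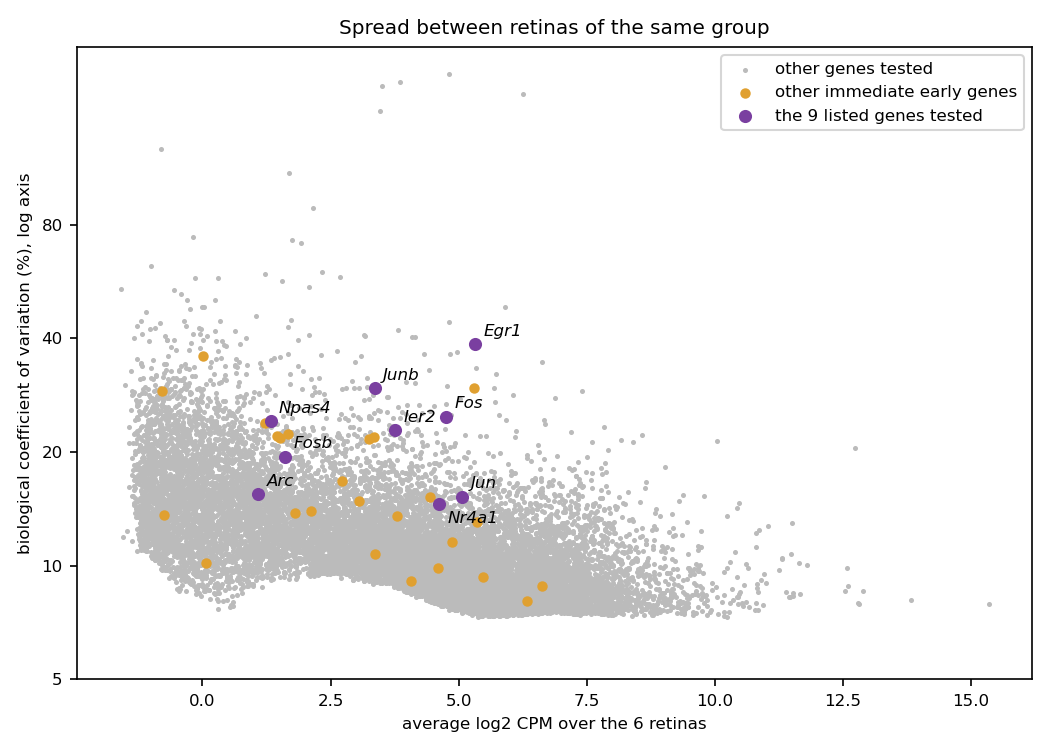
Biological coefficient of variation (y axis, percent, log axis) against average log2 CPM over the 6 retinas (x axis) for all genes tested (small grey points), other immediate early genes (orange) and the 9 tested genes (purple, named). The 9 genes lie between 14.6% and 38.5%, where the median of all genes is 10.7%.

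Further genes of the same response were examined through lists of known members. Among 26 other immediate early genes, 25 were tested (*Fosl1* did not pass the filter) and 0 were called by edgeR (1.49% of all genes). In edgeR 5 were at an unadjusted p under 0.05, where 21.4% of all genes passed. DESeq2 called 1 of the 25, and 5.96% of the genes that it gave an adjusted p. Of the 25, 9 were above and 16 below 0, with a median log2 fold change of -0.09. *Ccn1*, which encodes a secreted matrix protein and is a well-known target of YAP, was at 5.56, 3.83 and 8.96 TPM in control and 2.48, 2.73 and 2.10 TPM in *Yap* cKO retinas. The groups did not overlap for *Ccn1*, and its log2 fold change was -1.39 (SE 0.31, edgeR adjusted p = 0.0624). DESeq2 gave it an adjusted p of 0.00209. *Egr4*, an EGR factor (log2 fold change -0.56, edgeR adjusted p = 0.508), and *Klf2*, a Krüppel-like factor known from endothelium (log2 fold change -0.55, edgeR adjusted p = 0.274), followed in size. The groups did not overlap for 5 of the 25, where 24.3% of all genes did not, namely *Nr4a2* (higher in *Yap* cKO retinas) and *Ccn1*, *Per1*, *Dusp1* and *Sik1* (lower), of which all but *Ccn1* are named here after their values were seen. YR711 was the lowest *Yap* cKO retina in 15 of the 25 and YR615 the highest control in 17, and 16 exceeded the 75th percentile of dispersion.

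None of the 21 upstream regulators and feedback genes was called by edgeR (1.49% of all genes). Of the 21, 8 were at an unadjusted p under 0.05, where 21.4% of all genes passed. Among them 14 were above and 7 below 0, with a median log2 fold change over the 21 of 0.11. *Mrtfb*, a coactivator of SRF, had a log2 fold change of 0.36 (edgeR adjusted p = 0.150) and *Elk1*, a partner of SRF, 0.30 (edgeR adjusted p = 0.140). *Dusp5*, a phosphatase that inactivates ERK, had a log2 fold change of -0.30 (edgeR adjusted p = 0.117).

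Of 14 later activity-regulated genes, 1 was called, *Pcsk1*, the prohormone convertase of neuropeptide processing. It was at 11.1, 15.6 and 17.3 TPM in the controls and 25.8, 26.9 and 24.9 TPM in *Yap* cKO retinas. Every *Yap* cKO retina lay above every control, including YR711, where 24.3% of all genes had groups that did not overlap. The sums of the amacrine markers did not overlap between the groups either, and their part in this was not tested. *Pcsk1* rose by 0.76 on the log2 scale (SE 0.13, edgeR adjusted p = 0.0290), where 0.501% of all genes were called higher. How this call depends on single retinas or on a correction for exonic length (5604 bases) is not given here. *Vgf*, a neuropeptide precursor (log2 fold change 0.37, edgeR adjusted p = 0.513), and *Inhba*, a subunit of activin (0.33, edgeR adjusted p = 0.491), did not pass the test. The 14 genes had 8 differences above and 6 below 0, with a median of 0.04.

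Heat shock genes, known to respond to cellular stress, were included as another rapid response. They gave 0 calls of 7 by edgeR (1.49% of all genes) and 4 at an unadjusted p under 0.05 (21.4% of all genes). *Hspa1a*, an inducible HSP70 chaperone, had a log2 fold change of -0.53 (edgeR adjusted p = 0.0530), which is uncertain because *Hspa1b* is nearly identical in sequence. *Hsph1*, a co-chaperone, had 0.49 (edgeR adjusted p = 0.0887) and *Bag3*, which links chaperones to autophagy, 0.47 (edgeR adjusted p = 0.212).

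The 5 genes whose profile over the 6 retinas was most like the mean profile of the 9 were *Rpp38* (Pearson's r 0.994), *Max* (0.985), *Mir670hg* (0.980), *Tmem119* (0.976) and *Snhg1* (0.968). These values describe 6 retinas that share libraries and depth, and they were the highest of many genes searched. *Tmem119* is one of the 5 microglia markers above.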

How the data were processed

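The 3 control and 3 *Yap* cKO libraries were grouped by the genotype in the labels. Paired-end reads of stranded libraries were mapped to GRCm38 by the authors with STAR 2.7.3a, per the labels, and the deposited counts per gene are not normalized and were made with featureCounts 1.6.2 (strand setting 2, annotation release 98 per the file headers). From these counts and exonic lengths TPM was computed. After filterByExpr by group and TMM scaling, edgeR 4.0.16 in R 4.3.3 gave quasi-likelihood tests (glmQLFit and glmQLFTest), with Benjamini-Hochberg adjustment over 16575 genes. Alternatives used DESeq2 1.42.0, limma 3.58.1, other filters and size factors, and offsets corrected by a loess curve (span 0.3) for exonic length or GC content. The steps were tested on simulated data. Of the 55421 genes, 267 had no symbol. The genes studied and all lists were chosen with earlier results of these data known. The text names all 10 members, *Yap1*, from each list every called gene and the 3 largest fold changes, and the 5 non-members most alike in profile (mean TPM of at least 5; CPM on the log2 scale, prior count 2). With 3 retinas a group the smallest two-sided p of an exact permutation test is 0.1, and none was run. Counting error enters through the negative binomial model.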

Additional observations from a re-analysis of the deposited data

How the results depend on the processing

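Of 135 log2 fold changes of the 9 genes under 15 alternatives, 123 kept their direction and side of the threshold, 7 passed it and 5 changed sign. With no filter on low counts, *Egr2* was tested too and was not called. The 4 members called were *Junb* (edgeR adjusted p = 2.2e-07), *Egr1* (5.5e-05), *Nr4a1* (0.00199) and *Fosb* (0.0433), beside 6.19% of all 30129 genes tested. The cause was not tested. Leaving out each retina in turn gave 0 to 2 members called, *Junb* and *Nr4a1* without YR613 (8.84% of all genes called) and *Junb* without YR714 (5.89%). The sign of *Fos* changed without YR615 (0.26, range -0.43 to 0.26), that of *Egr1* without YR713 (-0.20, range -0.20 to 0.91), and that of *Arc* without YR615 (0.089) or YR711 (0.077, range -0.20 to 0.089) and with the GC correction (0.019). Other immediate early genes called numbered 1 of 25 (*Ccn1*) with DESeq2, which called 5.96% of the genes that it gave an adjusted p. The number was also 1 (*Ccn1*) with the likelihood ratio test (6.18% of all genes called), the length correction (2.77%) and the GC correction (3.83%). It was 7 with no filter, where *Fosl1* was tested too, and 0 to 4 when each retina was left out, with 4 without YR613 and 2 without YR714. The median log2 fold change over the 9 genes (-0.15) was 0.089 without YR615, -0.0019 without YR711 and -0.28 without YR613. It was -0.060 with the length correction and -0.089 with the GC correction. No paired analysis was possible because the groups share no replicate numbers. With 3 retinas per group, the intervals of single genes stayed wide, and *Egr2* had too few counts to pass the filter.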
